A study of Drosophila melanogaster with 20 samples.

Results

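Senseless (Sens) and Atonal (Ato) were overexpressed from the same driver in the eye-antennal imaginal disc of *Drosophila melanogaster*, the larval epithelium that forms the eye, the antenna and the head capsule, and the transcriptomes were compared directly across all genes. The comparison takes 6 of the 20 arrays of the series. The 3 Sens gain-of-function (GOF) arrays are of atoGal4 × UASsens discs and the 3 Ato GOF arrays of atoGal4 × UASato discs. The atoGal4 driver (line NP6558) supplies the yeast activator Gal4 in both groups, and the groups differ in the UAS transgene that Gal4 switches on. The 8 control arrays, 2 each of the atoGal4 driver alone, UASato alone, Gal4/7 (another driver) alone and CantonS wild type, serve here to show on which side of unperturbed discs a value lies. All discs were dissected at the third larval instar, after growth at 18 °C and a final 24 hours at 28 °C, and 2 µg of total RNA of each sample was labelled with biotin and hybridized to an Affymetrix *Drosophila* array. The controls do not include UASsens alone, so the overexpressed factor and any other difference between the UASsens and UASato stocks cannot be told apart. A whole disc was measured, so fewer cells of a type and less RNA per cell cannot be told apart either.

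Ato is a proneural basic helix-loop-helix transcription factor (TF) that selects the founder photoreceptor R8 of each ommatidium behind the morphogenetic furrow, the front of differentiation that sweeps across the eye disc. R8 then recruits the other photoreceptors through EGFR signaling. Sens is a zinc-finger TF that is switched on downstream of Ato in R8 precursors and in sensory organ precursors, where it maintains proneural activity. In R8 it represses *rough* (*ro*), a homeobox gene of the R2 and R5 photoreceptors. Sens is known both as a repressor and as a coactivator of proneural proteins.

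The arrays of Sens GOF were not equally distant from each other. Over all 18769 probe sets tested, the standard deviation (SD) of the log2 difference between replicates 1 and 2 was 0.149, while the lowest among the other 189 pairs of the 20 arrays was 0.325. Replicate 3 was 0.487 from replicate 1 and 0.501 from replicate 2, about as far as the Sens GOF arrays were from the Ato GOF arrays (0.461 to 0.564). The labels number the 3 as separate replicates, and whether replicates 1 and 2 share an RNA sample was not tested. The main values below keep the 3 arrays, and counts of genes that passed are followed by their values with replicates 1 and 2 averaged and counted as 1 array, once with these groups alone and once in a fit of all lines that shares the spread of the 20 arrays. Besides the Sens GOF, Ato GOF and control arrays, the fit of all lines holds 3 arrays of *ato* mutant discs and 3 of Gal4/7 × UASato discs. Their spread enters the p-values of that fit. The paper describes 3 biological replicates of Sens GOF and 3 of Ato GOF but does not say that they come from separate crosses. The p-values therefore measure the spread between these arrays only. The eye disc markers were present in both groups, with *eya* at 11.04, 11.22 and 11.07 in Sens GOF and 11.85, 11.60 and 11.86 in Ato GOF and *ey* at 9.05, 9.07 and 8.74 in Sens GOF and 9.04, 9.11 and 9.27 in Ato GOF, while array medians were 5.39 to 5.43 in Sens GOF and 5.38 to 5.42 in Ato GOF.

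**Figure D1:**
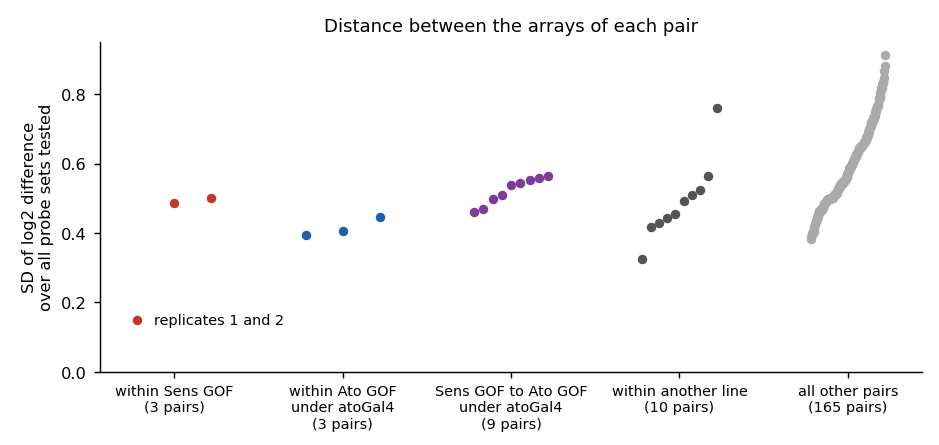
Distance between the 2 arrays of every pair, as the SD of the log2 difference over all probe sets (vertical axis, log2 units), grouped by the lines of the pair, each point 1 pair. Sens GOF replicates 1 and 2 sit at 0.149, below the other 189 pairs, which begin at 0.325.

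The targeted transcripts followed the labels. The *sens* probe set read 12.18, 12.15 and 11.68 on the log2 scale in Sens GOF, 9.81, 9.56 and 9.76 in Ato GOF, and 7.98 to 8.70 in the 8 controls. The 3 groups did not overlap, and *sens* was 4.91-fold higher in Sens GOF than in Ato GOF (log2 difference 2.30, SE 0.15, limma adjusted p = 0.00323). Averaging replicates 1 and 2 gave an adjusted p of 0.0288, and the same in the fit of all lines gave 0.138 by limma. The *ato* probe set read 9.29, 9.28 and 9.55 in Sens GOF, 11.30, 11.62 and 11.40 in Ato GOF, and 9.27 to 10.01 in the controls. Here Ato GOF stood apart, while Sens GOF lay within the controls, and *ato* was 4.19-fold lower in Sens GOF than in Ato GOF (log2 difference −2.07, SE 0.12, limma adjusted p = 0.00323, averaged 0.0288). An exact permutation test of either gene gave a two-sided p of 0.10, the smallest that 3 arrays against 3 allow. Against the same 8 controls, *sens* was 3.59 higher on the log2 scale in Sens GOF and 1.30 higher in Ato GOF, and *ato* differed by −0.36 in Sens GOF and by 1.71 in Ato GOF.

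Of 11982 genes, 254 were higher (2.12% of those tested) and 448 lower (3.74%) in Sens GOF than in Ato GOF at a limma adjusted p under 0.05, 702 in all (5.86%). The lower group was the larger in number, and the higher group held more of the large differences, since 95 higher and 43 lower genes differed by more than 2-fold. With replicates 1 and 2 averaged, 19 genes were higher (0.159%) and 20 lower (0.167%), and all 39 of them (0.325%) are among the 702 genes of the main comparison. In the fit of all lines with the averaged array, 41 were higher (0.342%) and 120 lower (1.00%), 161 in all (1.34%), of which 38 and 115 were among the 702. None of the 702 turned its sign in either. Without Sens GOF replicate 1, 2 or 3 the counts were 16, 32 and 913 higher and 16, 45 and 665 lower, and without Ato GOF replicate 1, 2 or 3 they were 62, 95 and 101 higher and 115, 129 and 160 lower. A total of 13 higher and 16 lower genes passed in the main comparison, with replicates 1 and 2 averaged, and whichever of the 6 arrays was left out. Not all of them passed in the fit of all lines with the averaged array. There *sens*, *ng1*, *ng2*, *ng3*, *MFS18*, *CG31436*, *CG30196* and *CG8888* of the higher genes did not pass (limma adjusted p 0.082 to 0.346). Of the lower genes, *Mmp2*, *scaf*, *tinc*, *X11Lbeta* and *Pgant4* did not pass there (0.0663 to 0.159). The median difference over all genes was −0.01. At an unadjusted limma p under 0.05, 2969 of the 11982 genes passed in the main comparison and 2047 with replicates 1 and 2 averaged. Counts at an unadjusted p in the lists below stand beside these. The count over all genes for the fit of all lines is not given here.

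**Figure D2:**
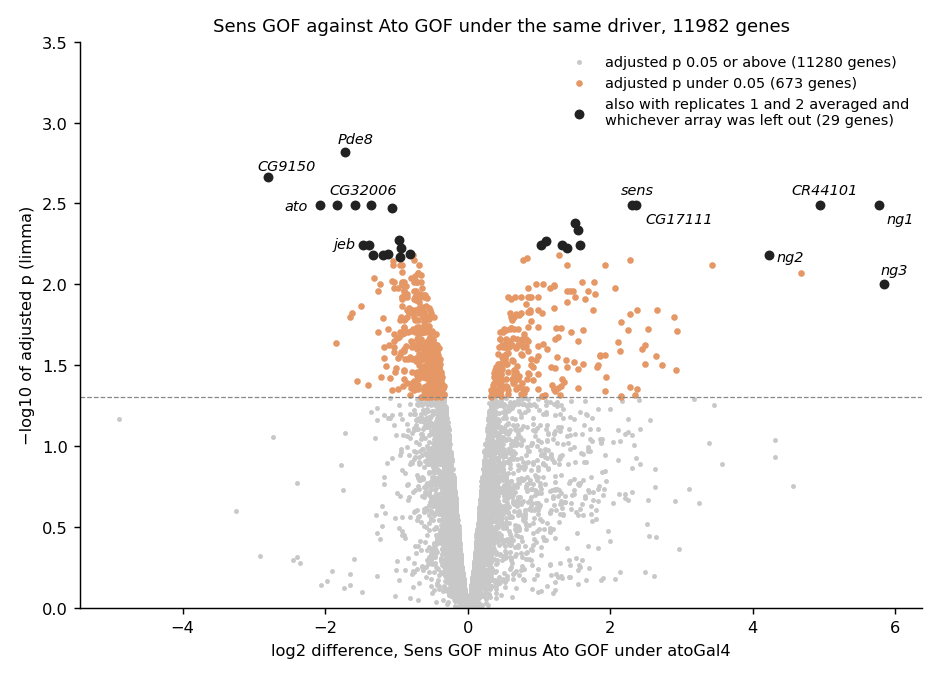
Log2 difference, Sens GOF minus Ato GOF under atoGal4 (horizontal axis), against −log10 of the limma adjusted p (vertical axis) for 11982 genes, with the threshold of 0.05 as a dashed line. Black points are the 29 genes that also passed with replicates 1 and 2 averaged and whichever array was left out, 16 of them on the left and 13 on the right.

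The 13 higher genes of this stricter set are described first. Those outside the 15 largest differences and the gene lists were picked after their values were seen. *CR44101*, a non-coding gene by its symbol, read 8.83, 9.02 and 7.86 in Sens GOF, 3.41, 3.71 and 3.78 in Ato GOF, and 3.21 to 4.95 in the controls. It was high in the Sens GOF arrays alone and was 30.6-fold higher than in Ato GOF (log2 difference 4.94, SE 0.30, limma adjusted p = 0.00323, averaged in the fit of all lines 1.11e-06). *CG17111* had the same layout, with 6.55, 6.66 and 6.48 in Sens GOF, 3.94, 4.14 and 4.54 in Ato GOF, and 3.67 to 4.41 in the controls, a difference of 2.36 (SE 0.16, limma adjusted p = 0.00323). *CG13033* read 7.63, 7.40 and 7.48 in Sens GOF, 6.48, 6.49 and 6.43 in Ato GOF, and 6.40 to 6.71 in the controls, a difference of 1.03. *CG17111* and *CG13033* are both on the list of predicted Sens targets that the study drew from these arrays, so their direction is not independent evidence.

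Transporter and receptor genes were also in this group. *MFS18*, a major facilitator superfamily gene, read 9.21, 9.30 and 9.23 in Sens GOF, 7.61, 7.93 and 8.03 in Ato GOF, and 7.50 to 8.04 in the controls. Its Sens GOF arrays lay above all others of the comparison, with a difference of 1.39 (SE 0.12, limma adjusted p = 0.00593). *Ir76a*, an ionotropic receptor gene of the olfactory system, read 7.68, 7.99 and 7.79 in Sens GOF and 6.61, 6.41 and 6.48 in Ato GOF, a difference of 1.32 (limma adjusted p = 0.00568). Its controls, however, spread over 4.26 to 7.52, with a median of 4.49. The 2 controls with the atoGal4 driver alone read 7.24 and 7.52. Sens GOF lay just above these 2 arrays and Ato GOF below them. *CG31436* (1.58) and *CG30196* (1.09) also read above all controls in each Sens GOF array. For *CG6701* (1.54) and *CG8888* (1.51) the Sens GOF arrays lay inside the range of the controls.

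The rest of the 13 are *sens* and the new glue genes *ng1*, *ng2* and *ng3*, which encode secreted products of the larval salivary gland. *ng3* read 10.18, 10.10 and 12.47 in Sens GOF and 4.60, 5.56 and 5.06 in Ato GOF, and *ng1* read 8.90, 8.87 and 10.28 in Sens GOF and 3.63, 3.66 and 3.44 in Ato GOF. These differences of 5.84 (SE 0.64) and 5.77 (SE 0.37) were the 2 largest increases of the comparison, at limma adjusted p = 0.00988 and 0.00323. The controls, however, covered 5.0 to 13.54 for *ng3* and 3.40 to 12.69 for *ng1*, a range that took in the 3 Sens GOF arrays of both genes and the Ato GOF arrays except replicate 1 of *ng3*. In the fit of all lines with the averaged array the adjusted p was 0.127 for *ng3* and 0.151 for *ng1*.

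**Figure D3:**
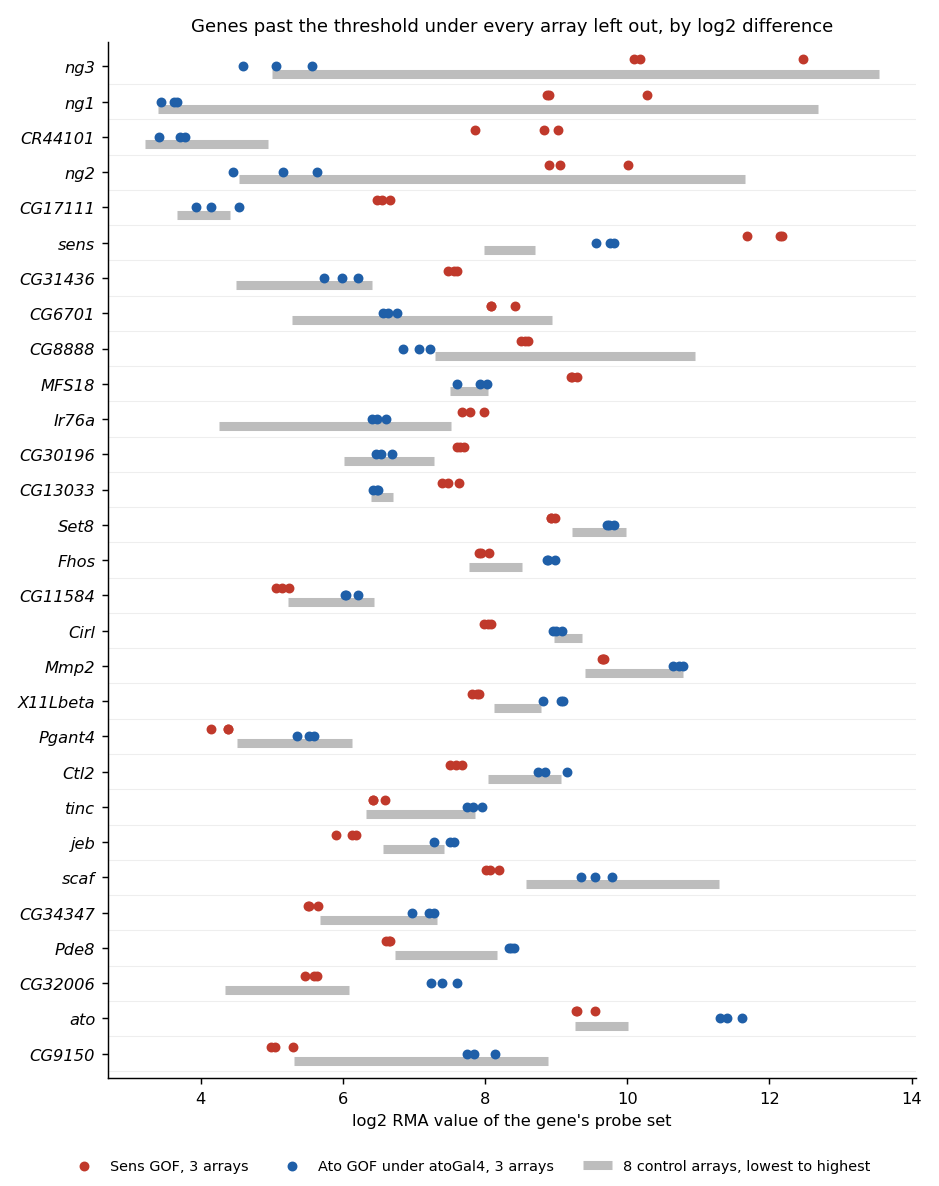
Log2 RMA value (horizontal axis) of the 29 genes that passed with replicates 1 and 2 averaged and whichever array was left out, ordered by difference, with the 3 Sens GOF arrays in red above the 3 Ato GOF arrays in blue and the range of the 8 controls in grey. *CR44101*, *CG17111* and *sens* read above all controls in Sens GOF, while the controls of *ng1*, *ng2* and *ng3* reach above the highest Sens GOF array.

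Among the 16 lower genes of the stricter set, *Pde8*, a cyclic nucleotide phosphodiesterase gene, had the smallest p of the whole comparison. The study predicted it as an Ato target and found its enhancer active in reporter assays. *Pde8* read 6.66, 6.65 and 6.60 in Sens GOF, 8.33, 8.41 and 8.36 in Ato GOF, and 6.73 to 8.17 in the controls. The groups lay on opposite sides of all controls, 3.31-fold apart (log2 difference −1.73, SE 0.07, limma adjusted p = 0.00152, averaged 0.0288). The largest decrease was of *CG9150*, with 4.99, 5.05 and 5.30 in Sens GOF and 8.14, 7.84 and 7.75 in Ato GOF, a difference of −2.80 (SE 0.13, limma adjusted p = 0.00218). Its controls covered 5.31 to 8.88, so that the Sens GOF arrays lay just under the lowest control. *CG32006*, a gene on chromosome 4, read 5.46, 5.60 and 5.63 in Sens GOF, inside the controls (4.34 to 6.08), and 7.60, 7.24 and 7.40 in Ato GOF, above them, a difference of −1.84 (SE 0.11).

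Several lower genes encode secreted or cell surface proteins. *jeb* (*jelly belly*) encodes a secreted ligand of the receptor tyrosine kinase Alk that photoreceptor axons release. It read 6.18, 6.13 and 5.90 in Sens GOF, 7.28, 7.51 and 7.56 in Ato GOF, and 6.57 to 7.42 in the controls, a difference of −1.38 (SE 0.11, limma adjusted p = 0.00568). The Sens GOF arrays lay below every control. *Cirl*, the latrophilin-type adhesion receptor gene, read 8.04, 8.09 and 7.99 in Sens GOF, 8.95, 9.0 and 9.08 in Ato GOF, and 8.97 to 9.37 in the controls, a difference of −0.97, and again Sens GOF was the group that departed from the controls. *Mmp2* (−1.06), a matrix metalloproteinase gene, and *scaf* (−1.47), which encodes a secreted serine protease-like protein, were also lower. For *Mmp2* the arrays of both groups lay within the controls (9.40 to 10.79). For *scaf* the Sens GOF arrays lay below all controls (8.58 to 11.29) and the Ato GOF arrays within them. *Ctl2* (−1.33), a choline transporter-like gene, read 7.59, 7.67 and 7.51 in Sens GOF and 9.15, 8.85 and 8.75 in Ato GOF.

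The lower genes with intracellular products included *Fhos* (−0.94), a formin gene, *X11Lbeta* (−1.12), a PDZ-domain adaptor gene, *Set8* (−0.81), a histone methyltransferase gene, and *Pgant4* (−1.19), which encodes an enzyme of mucin-type glycosylation. In *X11Lbeta*, the Sens GOF arrays (7.89, 7.92 and 7.81) were below all controls (8.13 to 8.78) and the Ato GOF arrays (8.82, 9.09 and 9.07) above them. In *Fhos*, Ato GOF (8.87, 8.88 and 8.98) was above all controls and Sens GOF (7.94, 8.06 and 7.91) within them. In *Set8* it was Sens GOF (8.99, 8.93 and 8.93) that lay outside, below the controls (9.22 to 9.98). *tinc* (−1.36), *CG34347* (−1.59), *CG11584* (−0.95) and *ato* complete the 16.

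The counts in the gene lists that follow stand beside 2.12% of all genes higher and 3.74% lower. Unless stated, the size given for a list is the number of its measured members, which can be fewer than were listed. By sign alone, 6263 of all 11982 genes had a negative difference. Of 7 measured genes of R8 specification, *ato*, *phyl* and *neur* were lower, *sens* was higher and 3 did not pass, with a median of −0.47. With replicates 1 and 2 averaged, 1 member was lower and 1 higher, and 3 were lower and none higher in the fit of all lines. *phyl* (*phyllopod*), which encodes an adaptor that directs the neural repressor Tramtrack to degradation, read 9.49, 9.51 and 9.50 in Sens GOF, 10.73, 10.48 and 10.42 in Ato GOF, and 9.44 to 9.93 in the controls. Its difference was −1.05 (SE 0.10, limma adjusted p = 0.00715, averaged 0.0503, averaged in the fit of all lines 0.0228). *neur* (*neuralized*), the ubiquitin ligase gene that activates the Notch ligand Delta, read 9.22, 9.44 and 9.31 in Sens GOF, 10.17, 10.02 and 10.42 in Ato GOF, and 9.25 to 9.77 in the controls, a difference of −0.88 (SE 0.12, limma adjusted p = 0.0163, averaged 0.0644, averaged in the fit of all lines 0.00518). For both genes Ato GOF lay above every control, and the Sens GOF arrays lay at or near the lower end of the controls. *boss* (−0.47), the R8 ligand of Sevenless, *da* (−0.32), the dimerization partner of Ato, and *nvy* (−0.25) did not pass. All 7 but *da* are among the genes that the study called raised in Ato GOF, from arrays that include these. A higher level in Ato GOF is therefore not independent evidence for them.

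In the list of R1 to R7 photoreceptor genes 2 of 9 were lower and none higher (median −0.49), with 1 lower with replicates 1 and 2 averaged and 2 in the fit of all lines. *ro* read 7.29, 7.42 and 7.19 in Sens GOF, 8.32, 8.15 and 8.23 in Ato GOF, and 7.03 to 7.96 in the controls. It was 0.93 lower on the log2 scale in Sens GOF (SE 0.09, limma adjusted p = 0.00755) and passed with the averaged array (0.0469) and in the fit of all lines (0.00748). Its Sens GOF arrays were within the range of the controls. *salr*, a spalt zinc-finger gene of R7 and R8, fell by 0.85 (limma adjusted p = 0.0410, averaged 0.149, averaged in the fit of all lines 0.0919). *salm* (−0.57), *svp* (−0.50), *pros* (−0.49), *sev* (−0.24) and *lz* (−0.08) did not pass.

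Of 9 measured TFs of retinal differentiation, 6 were lower and none higher, with a median of −0.67, but none passed with replicates 1 and 2 averaged (7 at an unadjusted p under 0.05) and 1 in the fit of all lines. *gl* (*glass*), required for photoreceptor maturation, read 10.70, 10.82 and 10.66 in Sens GOF, 11.54, 11.31 and 11.42 in Ato GOF, and 10.97 to 11.42 in the controls. Each Sens GOF array was below all controls, and the difference was −0.70 (SE 0.09, limma adjusted p = 0.0144, averaged 0.0617, averaged in the fit of all lines 0.170). *peb* (*hindsight*), a zinc-finger gene of photoreceptor differentiation, was 0.98 lower in Sens GOF (SE 0.11, averaged 0.0576 by limma, averaged in the fit of all lines 0.278). It read 9.25, 9.21 and 9.47 in Sens GOF, within the controls (9.20 to 9.85), and 10.29, 10.15 and 10.44 in Ato GOF, above them. *klu* (−0.83), *oc* (−0.72), *retn* (−0.58) and *Pph13* (−0.52) also passed in the main comparison. Upstream of them, in the retinal determination network, *eya* (−0.66, limma adjusted p = 0.0218, averaged 0.0824) and *eyg* (−0.46, limma adjusted p = 0.0292) were the 2 of 11 that were lower, and *ey* (−0.19) and *so* (−0.29) did not pass. With the averaged array none of the 11 passed by limma (5 at an unadjusted p under 0.05) and 1 in the fit of all lines.

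**Figure D4:**
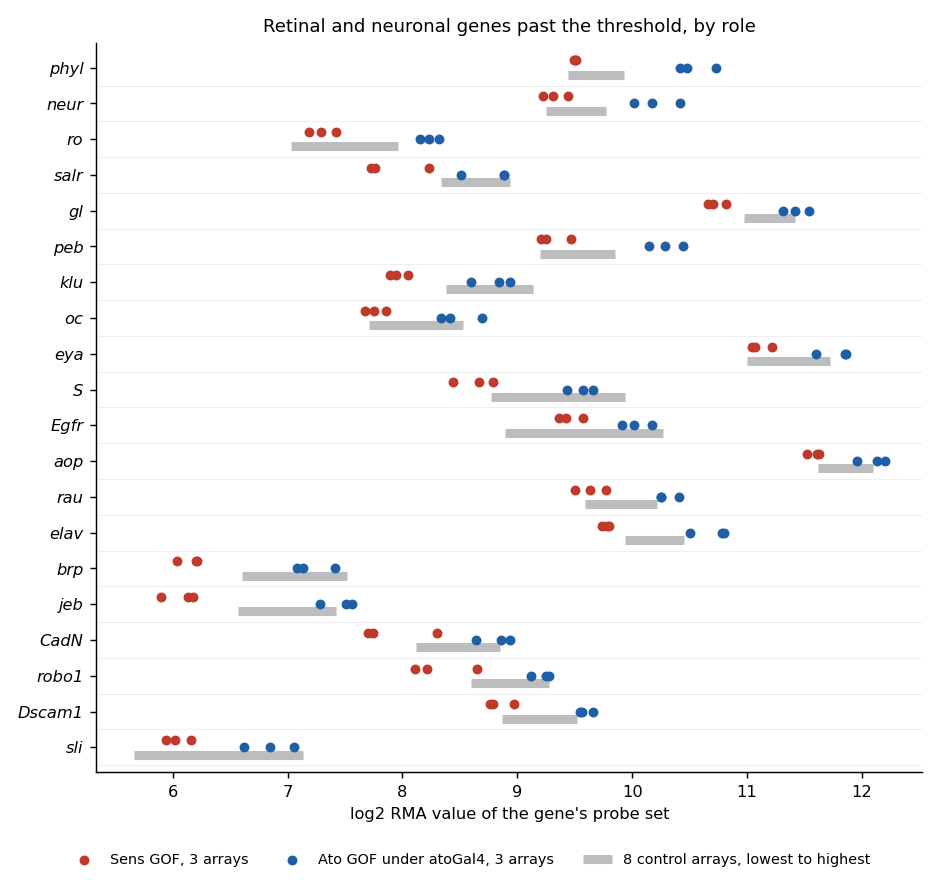
Log2 RMA value (horizontal axis) of 20 retinal and neuronal genes that passed at a limma adjusted p under 0.05, grouped by role from R8 specification to axon guidance, with the 3 Sens GOF arrays in red above the 3 Ato GOF arrays in blue and the range of the 8 controls in grey. The 20 were picked among genes lower in Sens GOF, so that Sens GOF reads below Ato GOF in all of them follows from the choice. *sens*, which was higher, is not shown. Ato GOF lies above all controls in *phyl*, *neur*, *ro*, *peb*, *rau*, *elav* and *Dscam1*. Sens GOF lies below all controls in *salr*, *gl*, *klu*, *elav*, *brp* and *jeb*.

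All 11 measured genes of EGFR and Ras signaling had a negative difference (median −0.43), against 6263 of all 11982 genes. Of them 4 were lower at a limma adjusted p under 0.05, against 3.74% of all genes. None passed with replicates 1 and 2 averaged (9 at an unadjusted p under 0.05) and 2 in the fit of all lines. *S* (*Star*), needed to traffic the EGFR ligand Spitz, read 8.67, 8.79 and 8.44 in Sens GOF and 9.66, 9.57 and 9.43 in Ato GOF, a difference of −0.92 (SE 0.11, averaged 0.0534 by limma). *rau* (−0.67), a positive regulator of receptor tyrosine kinase signaling, *Egfr* (−0.59) and *aop* (−0.51), the ETS repressor Yan, also passed. *spi* (−0.32), *aos* (−0.36) and *kek1* (−0.81) did not. Of 14 listed genes of the Notch pathway 7 have a value, namely *H*, *mam*, *kuz*, *fng*, *Psn*, *pen-2* and *edl*. Of these 1 was lower, *mam* (−0.33), which encodes the coactivator Mastermind. Of the 13 measured members of the *E(spl)* and *Brd* loci, the direct outputs of Notch and proneural factors, only *E(spl)m5-HLH* (−0.85) and *E(spl)mdelta-HLH* (−0.65) passed, and the median was −0.13. In hedgehog, Dpp and Wingless signaling, *nkd* (−0.74) and *ptc* (−0.57) passed of 9. No gene of the Notch list, the *E(spl)* and *Brd* list or this last list passed by limma with replicates 1 and 2 averaged (3, 5 and 3 at an unadjusted p under 0.05) or in the fit of all lines (1, 2 and 3).

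Of 16 genes of neuronal maturation 5 were lower and none higher (median −0.50, averaged 1 lower, averaged in the fit of all lines 2 lower). *elav*, the RNA-binding protein gene that marks differentiated neurons, read 9.74, 9.78 and 9.80 in Sens GOF, 10.80, 10.78 and 10.50 in Ato GOF, and 9.94 to 10.45 in the controls, a difference of −0.92 (SE 0.10, limma adjusted p = 0.00993, averaged 0.0547, averaged in the fit of all lines 0.0554). The groups lay on opposite sides of all controls. *brp* (*bruchpilot*), a scaffold of the presynaptic active zone, read 6.20, 6.04 and 6.21 in Sens GOF, 7.13, 7.41 and 7.08 in Ato GOF, and 6.60 to 7.52 in the controls, a difference of −1.06 (SE 0.11, limma adjusted p = 0.00955, averaged 0.0526). Here Ato GOF lay within the controls and Sens GOF below them. *jeb*, *CadN* (−0.90) and *Appl* (−0.73) were the others that passed. *Rbp9*, another RNA-binding protein gene of neurons, had a difference of 0.89 that did not pass.

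In axon guidance and adhesion 8 of 15 genes were lower, against 3.74% of all genes, and none higher (median −0.47). None was lower with replicates 1 and 2 averaged (9 at an unadjusted p under 0.05) and 2 in the fit of all lines. *robo1* (−0.90), the receptor of Slit, *sli* (−0.80), Slit itself, *beat-IIIc* (−0.83), *Dscam1* (−0.75), *Lar* (−0.62), *fra* (−0.49), *Fas1* (−0.47) and *caps* (−0.41) were the 8. *robo1* read 8.21, 8.11 and 8.65 in Sens GOF and 9.12, 9.25 and 9.28 in Ato GOF, and replicate 3 of Sens GOF was the closest to Ato GOF. Beyond the list, the 15 largest decreases held *sNPF* (−1.85), a neuropeptide gene, *tutl* (−1.65), an immunoglobulin superfamily gene, *Ace* (−1.62), the acetylcholinesterase gene, and *Dscam2* (−1.50). *Ace* read 7.68, 7.70 and 8.43 in Sens GOF, 9.69, 9.66 and 9.33 in Ato GOF, and 8.78 to 9.40 in the controls, so that Sens GOF was below every control (limma adjusted p = 0.0151, averaged 0.0687, averaged in the fit of all lines 0.0208). *sNPF* ranged over 4.56 to 7.65 in the controls, which took in all 3 Sens GOF arrays.

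Of 13 phototransduction and rhabdomere genes, *rdgC* (−0.87), *chp* (−0.77), *inaC* (−0.61), *rdgA* (−0.49) and *inaD* (−0.47) were lower and none higher, while *trp* (0.17), *Arr2* (0.10) and *rdgB* (0.04) did not pass and had positive differences. None of the 13 passed by limma with replicates 1 and 2 averaged, with these groups alone or in the fit of all lines (5 at an unadjusted p under 0.05 in each). Of 15 ecdysone response genes 5 were lower and none higher, among them *Eip78C* (−1.12), a nuclear receptor gene, and *br* (−0.53), the Broad TF gene, and none passed with the averaged array by limma, alone or in the fit of all lines (8 and 7 at an unadjusted p under 0.05). None of 14 genes of ciliated sensory neurons and none of 9 glial genes passed by limma, with medians of −0.08 and −0.19. At an unadjusted p under 0.05 there were 3 and 2 of them, against 2969 of all 11982 genes. Among 17 genes of sensory organ precursors and proneural function 3 were lower, namely *cpo* (−1.04), *Traf4* (−0.67) and *siz* (−0.55), with none by limma with replicates 1 and 2 averaged (7 at an unadjusted p under 0.05) and 3 in the fit of all lines.

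The study predicted direct targets of each TF from expression changes on these arrays joined with motif searches, so the direction of these lists is not independent evidence. The Ato list used here is the part of its predictions whose enhancers it went on to test, 39 genes, of which 31 have a value here. Of these, 21 were lower and 1 higher in Sens GOF than in Ato GOF (median −0.57), the higher one being *sens*. With replicates 1 and 2 averaged 3 were lower and 1 higher, and with the averaged array in the fit of all lines 9 were lower and none higher. Leaving out each array in turn gave 3 to 22 lower. *Pde8*, *neur*, *phyl*, *Mmp2*, *sNPF* and *ato* are among the lower ones, and *spdo* (0.00), *CG9801* (−0.22) and *RapGAP1* (−0.23) are among the 9 that did not pass. In the paper's reporter assays the enhancers of *Pde8*, *neur*, *phyl*, *ato*, *spdo* and *RapGAP1* were active in an Ato-dependent tissue. Those of *Mmp2*, *sNPF* and *CG9801* were negative. Of its predicted Sens targets, 61 have a value, and 25 were lower and 5 higher (median −0.41), with 2 lower and 2 higher with replicates 1 and 2 averaged and 8 lower and 4 higher in the fit of all lines. The 5 higher ones are *CG17111* (2.36), *CG32726* (1.55), *CG13033* (1.03), *CG6142* (0.88) and *CG12607* (0.84). The lower ones include *Ace*, *jeb*, *Eip78C*, *phyl* and *CadN*. A total of 10 measured genes are on both lists, 9 of them lower (*phyl*, *sNPF*, *Mmp2*, *siz*, *beat-IIIc*, *Mob2*, *CG31176*, *mam* and *Lim3*).

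**Figure D5:**
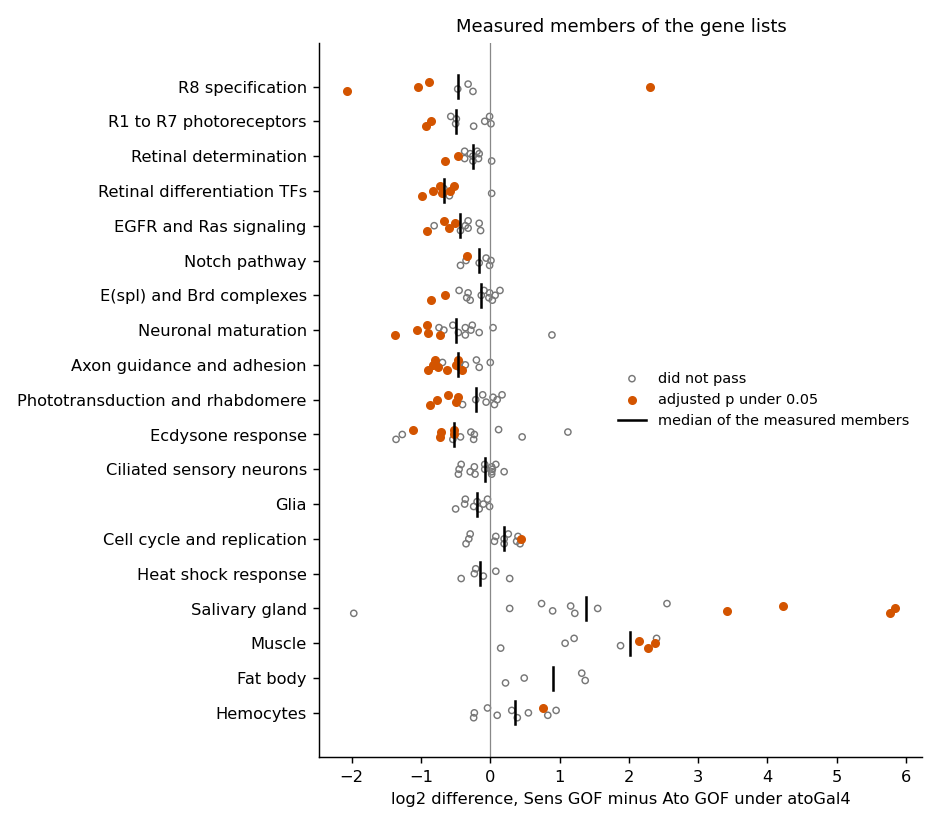
Log2 difference, Sens GOF minus Ato GOF under atoGal4 (horizontal axis), of the measured members of 19 gene lists, with members at a limma adjusted p under 0.05 filled and the median of each list as a black bar. Medians run from −0.67 (TFs of retinal differentiation) to 2.02 (muscle), and the filled points lie left of 0 in the retinal and neuronal lists apart from *sens*, and right of 0 for cell cycle and the salivary gland, muscle and hemocyte lists.

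Of 12 salivary gland genes 4 were higher (median 1.38), with 3 higher with replicates 1 and 2 averaged and none in the fit of all lines (4 at an unadjusted p under 0.05). The fourth, beside the new glue genes, is *PH4alphaSG1*, a prolyl 4-hydroxylase gene, with 8.53, 8.47 and 7.45 in Sens GOF, 4.26, 5.11 and 4.83 in Ato GOF, and 4.19 to 6.73 in the controls, a difference of 3.42 (SE 0.34, limma adjusted p = 0.00759, averaged 0.0501, averaged in the fit of all lines 0.119). The glue gene *Sgs3* varied within both groups, at 12.80, 12.84 and 14.37 in Sens GOF and 6.78, 14.31 and 14.28 in Ato GOF, and did not pass. The summed level of the 12 genes, the log2 of their summed linear values, ranged over 15.35 to 16.82 in Sens GOF, 11.16 to 16.65 in Ato GOF and 9.19 to 16.63 in the controls.

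All 8 muscle genes had a positive difference and 3 were higher (median 2.02), namely *Mlc1* (2.37), *Mlp60A* (2.27) and *Tm2* (2.15). A single muscle gene was higher with replicates 1 and 2 averaged, none in the fit of all lines by limma (5 at an unadjusted p under 0.05), and 0 to 7 were higher with 1 array left out. *Mlp60A*, a LIM protein gene, read 9.91, 10.04 and 9.26 in Sens GOF, 7.57, 7.24 and 7.59 in Ato GOF, and 7.82 to 11.52 in the controls (limma adjusted p = 0.00708, averaged 0.0469, averaged in the fit of all lines 0.195). Sens GOF lay inside the controls and Ato GOF below them. The summed muscle level was 11.73 to 12.80 in Sens GOF, 10.33 to 10.90 in Ato GOF and 11.01 to 14.30 in the controls. *Hml* (0.76) was the 1 of 10 hemocyte genes that passed, 6 of 83 cytochrome P450 genes were higher, against 2.12% of all genes, and 0 to 26 were with 1 array left out, and no fat body gene passed of 4 by limma (2 at an unadjusted p under 0.05, median 0.91). No hemocyte or P450 gene passed by limma with replicates 1 and 2 averaged (2 and 15 at an unadjusted p under 0.05) or in the fit of all lines (none and 6). With the averaged array, 2047 of all 11982 genes were at an unadjusted limma p under 0.05. The part that salivary gland, muscle, hemocyte or fat body RNA plays in the higher genes was not tested. By their symbols, the other large increases are mostly of uncharacterized genes, such as *CG43084* (4.68), *CG13067* (2.94) and *CG15530* (2.89), beside *Prm* (2.49), the paramyosin gene of muscle. For *CG15530* the Sens GOF arrays read 6.92, 7.03 and 5.54, above Ato GOF at 3.41, 3.44 and 3.97 and above the controls at 3.15 to 4.57 (limma adjusted p = 0.0160, averaged 0.0700, averaged in the fit of all lines 0.116).

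The cell cycle list had a median of 0.20 and 1 gene of 12 higher, *aurB* (0.45), against 2.12% of all genes. Among 10 genes of cone and pigment cells *hbs* (−0.49) and *rst* (−0.45) were lower, and *Dll* (−0.47) was the 1 of 10 antennal genes that passed. Over all genes 3.74% were lower. In cell death, *Debcl* (0.51) was higher and *Dronc* (−0.52) and *egr* (−0.45) lower of 8. No gene of these 4 lists passed by limma with replicates 1 and 2 averaged (3 of cell cycle, 2 of cone and pigment cells, 3 antennal and 3 of cell death at an unadjusted p under 0.05), and in the fit of all lines 1 did, *Debcl*. No gene passed by limma among 6 heat shock genes (none at an unadjusted p under 0.05), 10 of the JNK and wound response (2), 5 of the trachea (none), 41 cytoplasmic ribosomal proteins (2) and 3 housekeeping references (1). The differences of 3′ and 5′ probe sets of the array's own actin, GAPDH and eIF-4a controls, a sign of RNA integrity, were alike, at 0.40 to 0.47, 0.80 to 0.91 and 0.64 to 0.89 in Sens GOF and 0.30 to 0.56, 0.88 to 0.98 and 0.57 to 0.80 in Ato GOF.

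Set against the 8 controls, which both groups share, Sens GOF had 204 genes higher (1.70%) and 265 lower (2.21%) and Ato GOF 10 higher (0.0835%) and 1 lower (0.00835%) by limma. With replicates 1 and 2 averaged, Sens GOF had 31 higher and 41 lower. Of the 448 genes lower in Sens GOF than in Ato GOF, 181 read below all controls in each Sens GOF array and 69 above all controls in each Ato GOF array. Over all 11982 genes these numbers were 560 and 259. Of the 254 higher genes, 97 read above all controls in each Sens GOF array and 24 below all controls in each Ato GOF array, against 503 and 149 over all genes. These positions rest on the arrays that chose the genes and are given as a description.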

How the data were processed

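The values are log2 expression as deposited, which the authors computed by RMA (background correction, quantile normalization of the arrays and a summary per probe set). Its version is not given in the sources used here. Of 18952 probe sets, 183 Affymetrix controls were left out. By the array's annotation 13647 name 1 gene, 402 several and 4720 none here, and symbols were updated through Entrez IDs to RefSeq. Each gene takes the brightest probe set that names it alone, by the mean of the 20 arrays. A linear model of the 6 arrays was moderated by empirical Bayes in limma 3.58.1 (R 4.3.3), with Benjamini-Hochberg adjustment over 18769 probe sets and a threshold of 0.05, and tested on simulated data. Array number limits the precision. Genes named are the 15 largest differences in each direction that passed with groups that did not overlap, *sens* and *ato*, and up to 4 members per list, the largest that passed or else the brightest; the stricter set of 29 genes and other genes were added after values were seen. Members and lists were chosen with earlier results of these data known. Alternatives were other fits, filters, scalings, thresholds and arrays left out.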

Additional observations from a re-analysis of the deposited data

Results flagged for a closer look

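For 12 of 11982 genes every Sens GOF array lay below all 8 controls and every Ato GOF array above them, and for 3 genes the layout was the opposite. This layout, picked on the same arrays, already sets the groups apart. That each of the 15 passed by limma is therefore no added evidence. With Sens GOF replicates 1 and 2 averaged, 2 of them passed. These were *Pde8* (log2 difference −1.73, limma averaged adjusted p = 0.0288) and *X11Lbeta* (−1.12, 0.0469, but 0.107 in the fit of all lines with the averaged array). Among the other genes with Sens GOF below, *cpo* (−1.04), an RNA-binding protein gene of the nervous system, read 9.70, 9.71 and 10.07 in Sens GOF, 10.90, 10.81 and 10.89 in Ato GOF, and 10.12 to 10.50 in the controls. *ImpL2* (−0.71), which encodes a secreted insulin-binding protein, read 11.65, 11.62 and 11.79 in Sens GOF, 12.49, 12.22 and 12.47 in Ato GOF, and 11.86 to 12.19 in the controls. *bbg* (−0.93), *elav* (−0.92), *glec* (−0.89), *Ac13E* (−0.69), *E(spl)mdelta-HLH* (−0.65), *betaTub60D* (−0.61), *Cnx99A* (−0.51) and *Cdc27* (−0.41) had the same layout. The 3 genes with Sens GOF above were *Lcp65Af* (1.51), *Nepl4* (0.71) and *bigmax* (0.54).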

How the results depend on the processing

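The counts of genes between Sens GOF and Ato GOF depended on the Sens GOF arrays. Against 254 higher and 448 lower, averaging replicates 1 and 2 gave 19 and 20, the same in a fit of all lines 41 and 120, and array weights 1501 and 1429. Leaving out 1 array at a time gave 16 to 913 higher and 16 to 665 lower, with both lowest counts without Sens GOF replicate 1 and both highest without replicate 3. A threshold of 0.01 left 25 and 41, and 0.1 gave 580 and 856. Whether the replicate numbers pair the arrays is not known. Same-numbered deviations correlated at 0.10, 0.04 and 0.16, but without differently numbered arrays for comparison these values cannot decide it. The replicate block gave 145 and 113. Filtering dim probe sets, repeated quantile normalization, median centring, a trended robust variance and a fit of all 20 arrays kept the counts within 1.5-fold. Reading each gene from its probe set with the lowest p did too. That choice can only keep or add genes that pass, so it does not test whether other probe sets agree. Against the controls, Sens GOF (204 and 265) had 41 and 26 with the atoGal4 arrays as the only controls, 600 and 635 in the fit of all 20 arrays, 31 and 41 with the averaged array, and 31 to 153 and 32 to 116 with 1 array left out. Ato GOF (10 and 1) had 3 and 2, then 67 and 30, and 0 to 1 higher and 0 to 1 lower with 1 array left out (540 higher and 265 lower at an unadjusted limma p under 0.05 where both were 0). The difference of *sens* was 2.22 with an adjusted p of 0.138 in the averaged fit of all lines. Of 88 named genes that passed, 17 passed with the averaged array and 15 whichever array was left out, and the difference of *verm*, which did not pass (0.10), ranged over 0 (without Sens GOF replicate 1, where its sign turned) to 0.29. The cause of these changes was not tested.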

Other observations

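Of 65 genes on chromosome 4, 8 were lower (12.3%) and 1 higher in Sens GOF than in Ato GOF at a limma adjusted p under 0.05, while 3.36% to 4.22% of the genes on the other arms were lower. Beside *CG32006* they included *Eph* (−0.43), an ephrin receptor gene, *Ekar* (−0.67), a kainate-type glutamate receptor gene, and *Actbeta* (−0.62), an activin-type ligand gene. The pattern was noticed after the values were seen, and of these genes only *CG32006* passed with Sens GOF replicates 1 and 2 averaged (0.0288).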
